A study of Rattus norvegicus with 12 samples.

Results

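The cell cycle and DNA replication genes described here are 48 named genes whose products drive cells from G1 through DNA synthesis into mitosis. Members were every probe set that the array annotation gives to exactly 1 of these genes. They came to 64 probe sets of 47 genes, out of 20826 probe sets of 14217 genes with a single-gene assignment. Rrm2 had no such probe set. The RNA came from left hemispheres of male Sprague-Dawley rats that were 8 weeks old. MCAO rats (n = 7) had a middle cerebral artery occluded and then reperfused, as a model of ischemic stroke, and Sham rats (n = 5) had a sham operation. The hemispheres were taken 24 h after reperfusion, and each rat gave 1 array. The labels do not say which side was occluded or how long the occlusion lasted. The hemisphere is a mixture of tissue inside and outside the supply of the artery, so in these bulk samples fewer cells of a type and less RNA per cell cannot be told apart.

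In a cell that enters the cycle, D-type cyclins pair with the kinases Cdk4 and Cdk6 and phosphorylate the retinoblastoma family of pocket proteins. That frees E2F transcription factors, which switch on genes for licensing of replication origins, for the replication fork and for nucleotide synthesis. Cyclin A2, B-type cyclins and Cdk1 then carry the cell through G2 and mitosis. In the adult brain most neurons are outside the cycle, and microglia, endothelial cells, oligodendrocyte precursors and progenitors of the ventricular wall are the cells known to divide.

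Values are deposited log2 signals of the probe sets, and a difference of 1 is a doubling. Of all probe sets, 62.5% were nearly constant in the deposited table (SD over the 12 arrays under 0.01), so that no difference of a readable size could appear in them. The log base was judged from the value range, and how the signals were background-corrected and normalized is not given in these sources. Array medians lay between 7.23 and 7.27. Among the member probe sets 31 varied and 33 were nearly constant, and 18 of the 47 genes were nearly constant in every probe set. A nearly constant value is not a measurement of an unchanged transcript. One MCAO array, MCAO 2, stood apart from the other 6 in many of these genes. Several counts and the changes of Cdk1, Pola1 and Tyms are also given without it.

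With every gene represented by its brightest probe set and no filter on dim signals, 20 of the 47 genes rose in MCAO and 0 fell (limma, adjusted p under 0.05, SD of at least 0.01). Over all 14217 genes 15.6% rose and 15.0% fell. At an unadjusted p under 0.05, 21 members were higher and 0 were lower in this fit. The exact rank-sum test was run on the 45 members that passed the filter described below. It gave 21 higher and 0 lower at an unadjusted p under 0.05, and 17 higher and 0 lower at an adjusted p under 0.05. Counted by probe set, 24 of 64 rose and 0 fell, where 14.9% of all 20826 probe sets rose and 12.2% fell. Of varying probe sets, 36.2% rose and 29.7% fell over the whole array, and 24 of 31 rose among the members. The median log2 change was 0.49 among the 26 varying members and 0.03 among the 6400 varying genes of the whole array. Adjusted p-values and changes below come from the fit of the 12153 genes that passed a filter (5 or more arrays over a signal of 6.61, which is the 25th percentile). The same 20 members were called in it, out of 45 tested, where 18.3% of all genes rose and 17.8% fell. Among varying genes alone 20 of 26 members rose, where 35.2% of the 6339 varying genes rose and 34.2% fell. Of the 19 nearly constant members tested, 10 had a limma adjusted p under 0.05, as did 992 of all 5814 nearly constant genes. The changes of these members were no larger than about 0.001 on the log2 scale and were not counted as calls. The filter removed Bub1b and Cdk6. It was met by 6 of the 20 called members in MCAO arrays alone, namely Rbl1, Mcm3, Ccna2, Ccnb2, Cdk1 and Mki67, so those genes entered that fit because they were high in MCAO.

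**Figure D1:**
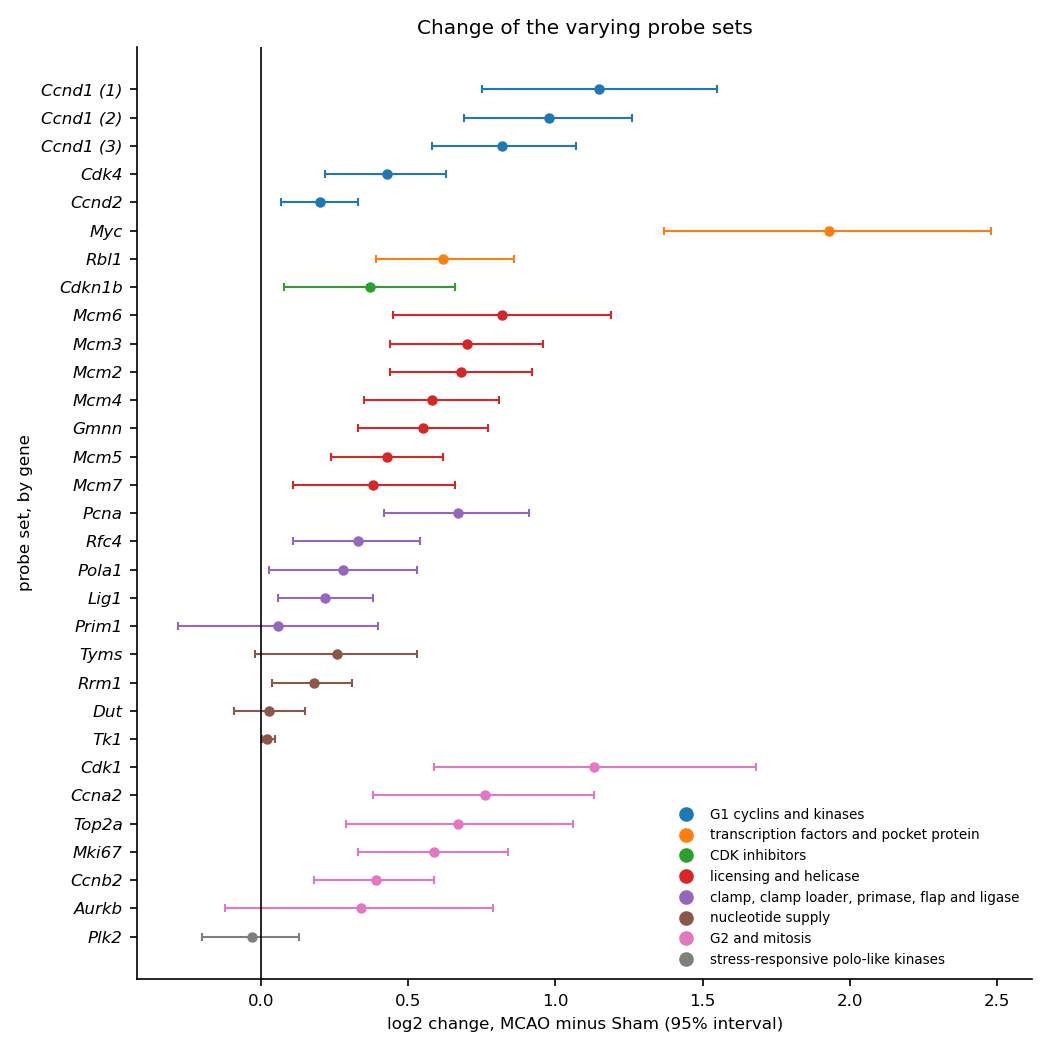
Log2 change (MCAO minus Sham) of the 31 varying member probe sets with its 95% interval, grouped by role from G1 genes at the top to polo-like kinases at the bottom. Numbers in brackets tell apart probe sets of 1 gene. Myc stands farthest to the right at 1.93, and Plk2 is the only one left of 0.

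Among the genes of G1 entry the change was largest in Myc (Entrez Gene 24577), a transcription factor that promotes growth and cell cycle entry. Its log2 signal in MCAO rats ran from 7.45 in MCAO 4 through a median of 8.74 to 9.11 in MCAO 6, against 6.53, 6.60, 6.77, 6.64 and 6.63 in the Sham rats. The groups did not overlap, and MCAO 4 lay well below the other MCAO rats. The mean of the 7 MCAO rats was 8.56 ± 0.55 (SD) and that of the 5 Sham rats was 6.63 ± 0.09 (SD), which is a 3.8-fold difference with a 95% interval of 2.59 to 5.57 (limma adjusted p = 0.000948).

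Ccnd1 (Entrez Gene 58919), which encodes cyclin D1, was measured by 3 probe sets that moved together. On the brightest, MCAO rats ran from 8.41 through a median of 8.85 to 9.26, against 7.96, 7.85, 7.90, 7.98 and 7.93 in Sham rats. The groups did not overlap on any of the 3 probe sets. The fold difference was 1.97 (95% interval 1.62 to 2.4, limma adjusted p = 0.000976), and the other probe sets gave log2 changes of 1.15 ± 0.18 and 0.82 ± 0.11 (SE). Cdk4, the kinase partner of the D cyclins, rose by 0.43 ± 0.09 (SE, adjusted p = 0.00484), with MCAO values from 8.79 through a median of 9.17 to 9.45 against 8.65, 8.65, 8.70, 8.77 and 8.80 in Sham rats. Its lowest MCAO rat, MCAO 2, lay just inside the Sham range. Ccnd2, encoding cyclin D2, rose by only 0.20 ± 0.06 (adjusted p = 0.0195), and MCAO 2 again lay among the Sham rats. Its call was lost without Sham 2 (adjusted p = 0.0541) and without Sham 3 (adjusted p = 0.0528).

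The remaining genes of G1 carried no readable difference, although Ccnd3 (limma adjusted p = 0.012) and Cdk2 (0.00462) passed the threshold on values that hardly varied. Ccnd3 (cyclin D3), Ccne1 (cyclin E1), Cdk2 and Cdk6 were nearly constant in all of their probe sets, with differences of at most 0.00091 on the log2 scale and signals of 8.30 for Ccnd3 and 7.31 for the brighter Cdk2 probe set in every rat. The same held for E2f1, an activating E2F factor (0.00018). Rbl1, which encodes the pocket protein p107 and is itself a target of E2F, rose by 0.62 ± 0.10 (SE, adjusted p = 0.00201). MCAO rats had Rbl1 signals from 6.71 through a median of 7.01 to 7.23, against 6.17, 6.56, 6.57, 6.29 and 6.41 in Sham rats, with no overlap.

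Both inhibitors of cyclin-dependent kinases among the members rested on thin data. The brighter probe set of Cdkn1b, which encodes the inhibitor p27, was nearly constant at 9.82 in both groups. Its dimmer probe set ran from 7.08 in MCAO 2 through a median of 7.71 to 7.90 in MCAO rats, against 7.54, 7.13, 7.23, 7.20 and 7.23 in Sham rats. In the fit over all probe sets that difference of 0.37 ± 0.13 (SE) just passed (limma adjusted p = 0.0489). Cdkn2c, which encodes the Cdk4 and Cdk6 inhibitor p18, was nearly constant on both of its probe sets.

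All 7 genes of origin licensing rose, and none was nearly constant on the probe set used. Over the whole array 35.2% of varying genes rose. Every varying gene also rose among the G1 cyclins and kinases (3 of 3) and among the transcription factors and pocket protein (2 of 2), where the rest were nearly constant. Mcm2 to Mcm7 encode the 6 subunits of the helicase ring that is loaded on origins in G1 and unwinds DNA in S phase, and Gmnn encodes geminin, which blocks a second loading. The median log2 change over these 7 genes was 0.58. Mcm6 had the largest (0.82 ± 0.17, SE), followed by Mcm3 (0.70 ± 0.12), Mcm2 (0.68 ± 0.11), Mcm4 (0.58 ± 0.11), Gmnn (0.55 ± 0.10), Mcm5 (0.43 ± 0.09) and Mcm7 (0.38 ± 0.12).

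Mcm2 (Entrez Gene 312538) ran from 7.00 in MCAO 2 through a median of 7.32 to 7.65 in MCAO rats, against 6.63, 6.66, 6.69, 6.72 and 6.72 in Sham rats (adjusted p = 0.00163). Mcm6 ran from 6.84 in MCAO 2 through a median of 7.44 to 7.82, against 6.68, 6.61, 6.60, 6.52 and 6.68 in Sham rats (adjusted p = 0.00407). Neither gene had an overlap between the groups, and in both the spread among MCAO rats was several times that among Sham rats, at 0.24 against 0.04 for Mcm2 and 0.37 against 0.07 for Mcm6 (SD). Mcm3 ran from 6.57 through a median of 7.06 to 7.37 in MCAO rats, against 6.37, 6.41, 6.28, 6.39 and 6.44 in Sham rats (adjusted p = 0.00198). Gmnn ran from 7.31 through a median of 7.76 to 7.82 in MCAO rats, against 7.06, 7.11, 7.15, 6.95 and 7.25 in Sham rats (adjusted p = 0.00239). These were separated as well, as was Mcm5 (6.97 to 7.48 in MCAO, 6.59 to 6.90 in Sham; adjusted p = 0.00378). Mcm4 ran from 8.12 through a median of 8.55 to 8.71 in MCAO rats, against 7.85, 8.05, 7.94, 7.86 and 7.90 in Sham rats (adjusted p = 0.00253). It too was separated, and it was the only one of the 7 in which MCAO 4 and not MCAO 2 was lowest. Mcm7 was the weakest: MCAO 2 at 8.04 lay inside the Sham range of 8.02 to 8.30, and the adjusted p of 0.0285 rose to between 0.0528 and 0.0675 without MCAO 3, MCAO 5, Sham 1, Sham 2, Sham 3 or Sham 4.

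The promoters of 4 of these helicase genes hold the letters of an E2F site, and they are shown because the genes moved together. Mcm3 and Gmnn, which rose as well, had no match, and Mcm4 was not searched. The letters searched were TTCCCGC or TTCGCGC or TTGCCGC or TTGGCGC on either strand, within 250 bases before the annotated start (RefSeq, GRCr8). Each sequence runs 5′ to 3′ on the strand of its gene and ends at the base before the start, and capitals mark the matches. The regions are chr4:122918095-122918344 (minus strand) for Mcm2, chr19:13488563-13488812 (plus) for Mcm5, chr13:42404353-42404602 (minus) for Mcm6 and chr12:22163179-22163428 (minus) for Mcm7.
Mcm2: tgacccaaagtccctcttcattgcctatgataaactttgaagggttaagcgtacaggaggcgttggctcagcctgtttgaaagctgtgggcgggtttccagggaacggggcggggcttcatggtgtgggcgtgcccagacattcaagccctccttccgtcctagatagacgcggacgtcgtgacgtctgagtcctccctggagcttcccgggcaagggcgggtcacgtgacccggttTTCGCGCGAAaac
Mcm5: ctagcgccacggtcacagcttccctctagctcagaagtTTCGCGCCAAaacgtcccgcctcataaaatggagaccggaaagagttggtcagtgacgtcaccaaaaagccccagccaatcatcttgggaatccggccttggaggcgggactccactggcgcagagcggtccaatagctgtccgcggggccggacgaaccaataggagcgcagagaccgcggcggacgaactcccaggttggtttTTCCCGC
Mcm6: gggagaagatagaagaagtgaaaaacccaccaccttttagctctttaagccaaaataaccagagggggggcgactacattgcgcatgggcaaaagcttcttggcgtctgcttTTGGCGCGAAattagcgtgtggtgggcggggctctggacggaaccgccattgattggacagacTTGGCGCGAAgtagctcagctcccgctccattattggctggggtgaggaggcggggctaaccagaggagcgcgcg
Mcm7: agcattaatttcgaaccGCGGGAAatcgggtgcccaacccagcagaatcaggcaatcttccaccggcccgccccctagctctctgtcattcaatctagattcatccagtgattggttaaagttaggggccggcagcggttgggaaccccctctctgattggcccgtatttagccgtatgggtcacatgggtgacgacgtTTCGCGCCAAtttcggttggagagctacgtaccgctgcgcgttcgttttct
Capitals longer than 7 letters are overlapping matches on both strands, as in the Mcm2 run just before the start. An E2F match was in 14 of the 39 members with a listed promoter, where 7.59% of all 33469 promoters and 9.24% of the 21851 promoters of protein-coding genes did. The E-box CACGTG, the letters bound by Myc with its partner Max, was in 3 of 39 members and in 5.59% of all promoters. A match is a description of the letters and not evidence of binding.

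At the replication fork the classes split. Pcna (Entrez Gene 25737), the sliding clamp that holds the polymerase on DNA, ran from 10.18 in MCAO 2 through a median of 10.64 to 10.81 in MCAO rats, against 9.78, 9.93, 9.99, 9.82 and 9.97 in Sham rats. The groups did not overlap, and the fold difference was 1.59 (95% interval 1.34 to 1.88, limma adjusted p = 0.00194). Rfc4, a subunit of the clamp loader, rose by 0.33 ± 0.10 (SE, adjusted p = 0.0192). Its MCAO values ran from 7.63 in MCAO 2, inside the Sham range, through a median of 8.07 to 8.25, against 7.70, 7.72, 7.70, 7.59 and 7.84 in Sham rats, and its call was lost without Sham 4 (adjusted p = 0.0504). The other clamp loader genes Rfc2, Rfc3 and Rfc5, and the flap endonuclease gene Fen1, were nearly constant, at 7.12 for Rfc3 and 7.64 for Fen1.

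The primase-polymerase genes and the ligase gene gave little. Pola1, the catalytic subunit of the polymerase that starts new strands, had a change of 0.28 ± 0.11 (SE) that did not pass (adjusted p = 0.0647). In 6 MCAO rats Pola1 lay between 6.76 and 7.27, above the Sham range of 6.66 to 6.74, and in MCAO 2 it lay below that range at 6.55. Without MCAO 2 the change was 0.35 and passed (adjusted p = 0.00607). Prim1, the primase subunit that makes the RNA primer, had a change of 0.06 with a 95% interval of -0.28 to 0.40, and its groups overlapped widely (8.15 to 8.83 in MCAO, 7.98 to 8.68 in Sham). Lig1, which seals nicks between new fragments, was nearly constant on its brighter probe set, while its dimmer one changed by 0.22 ± 0.07 in the fit over all probe sets (adjusted p = 0.0396).

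Genes of nucleotide supply had a median change of 0.18 among the 3 that varied on their brightest probe set, and 1 of the 4 measured rose. Over the whole array 18.3% of all genes and 35.2% of varying genes rose, so this count does not set the class apart. Rrm1, the large subunit of ribonucleotide reductase, ran from 7.60 through a median of 7.80 to 8.00 in MCAO rats, against 7.60, 7.55, 7.64, 7.62 and 7.70 in Sham rats. It rose by 0.18 ± 0.06 (SE, adjusted p = 0.0358), a call lost on leaving out MCAO 4, MCAO 5, MCAO 6, Sham 1, Sham 2, Sham 3 or Sham 4 (adjusted p between 0.0576 and 0.0887). Tyms, thymidylate synthase, had a change of 0.26 ± 0.12 (SE) and did not pass (adjusted p = 0.118). The MCAO rats ran from 6.54 through a median of 7.16 to 7.31, against 7.01, 6.69, 6.81, 6.71 and 6.87 in Sham rats. The 6.54 of MCAO 2 was under all Sham values, and without that rat the change was 0.35 and passed (adjusted p = 0.00392). Dut, which removes dUTP, had a change of 0.03 with a 95% interval of -0.09 to 0.15 on its varying probe set, which ran from 9.64 through a median of 9.79 to 9.94 in MCAO rats, against 9.81, 9.68, 9.81, 9.72 and 9.90 in Sham rats. The groups overlapped. Its other probe set was nearly constant. Tk1, thymidine kinase, had 2 nearly constant probe sets and 1 that ran from 6.95 through a median of 6.99 to 7.00 in MCAO rats, against 6.97, 6.95, 6.95, 6.96 and 6.97 in Sham rats (change 0.02, adjusted p = 0.0574 in the fit over all probe sets).

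**Figure D2:**
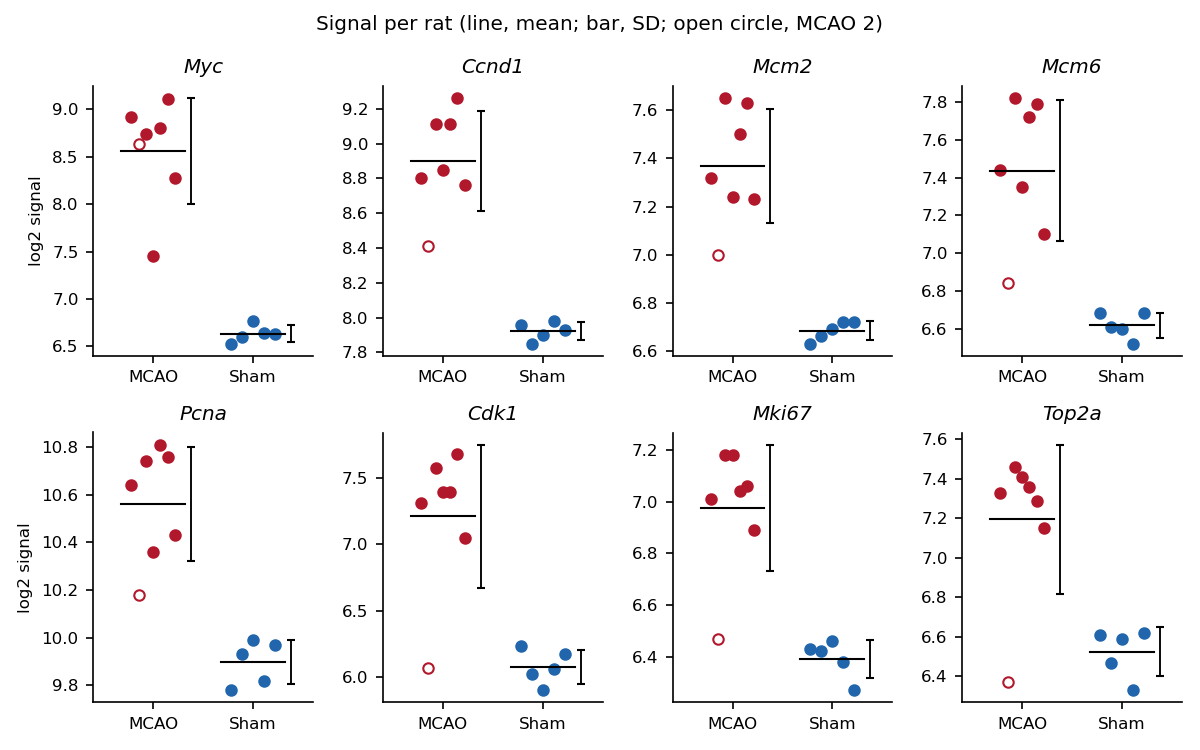
Log2 signal of 8 members in each rat (MCAO left, red; Sham right, blue), each on its brightest varying probe set, with the mean as a line and the SD as a bar beside it. MCAO 2, drawn as an open circle, lies with or just above the Sham rats for Cdk1, Mki67 and Top2a and well above them for Myc.

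The genes of G2 and mitosis divided into 5 that rose, 1 that varied without passing and 7 that were nearly constant. Without the filter, 15.6% of all genes and 34.6% of varying genes rose over the whole array. Cdk1 (Entrez Gene 54237), the kinase of mitotic entry, ran from 6.07 in MCAO 2 through a median of 7.39 to 7.68 in MCAO rats, against 6.23, 6.02, 5.90, 6.06 and 6.17 in Sham rats. The other 6 MCAO rats were all above 7, and MCAO 2 sat in the middle of the Sham rats. The fold difference was 2.19 (95% interval 1.5 to 3.2, limma adjusted p = 0.00508), and the log2 change of 1.13 became 1.32 without MCAO 2 (adjusted p = 0.000166). Ccna2, cyclin A2, had the same arrangement: 5.80 in MCAO 2 and 6.34 to 6.90 in the other MCAO rats (median of all 7, 6.68), against 5.72, 5.71, 5.90, 5.84 and 5.82 in Sham rats (change 0.76 ± 0.17, SE, adjusted p = 0.00566).

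Top2a, the topoisomerase that untangles sister chromosomes, was 6.37 in MCAO 2 and 7.15 to 7.46 in the other MCAO rats, against 6.61, 6.47, 6.59, 6.33 and 6.62 in Sham rats (change 0.67 ± 0.17, SE, adjusted p = 0.0109). Its second probe set was nearly constant at 6.55. Mki67, whose product Ki-67 is the usual marker of dividing cells, ran from 6.47 in MCAO 2 through a median of 7.04 to 7.18 in MCAO rats, against 6.43, 6.42, 6.46, 6.38 and 6.27 in Sham rats. The groups were apart only by the small step between 6.47 and 6.46 (change 0.59 ± 0.11, SE, adjusted p = 0.00326). Ccnb2, cyclin B2, rose by 0.39 ± 0.09 (adjusted p = 0.00743), with MCAO 2 at 6.47 inside the Sham range of 6.32 to 6.53.

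The other mitotic members gave no call. Aurkb, a kinase of the chromosomal passenger complex, scattered in both groups (6.71 to 7.64 in MCAO, 6.16 to 7.24 in Sham), and its change of 0.34 ± 0.20 (SE) did not pass (adjusted p = 0.213). Ccnb1 (cyclin B1), the kinase genes Aurka and Plk1, the checkpoint gene Bub1b, the anaphase activator gene Cdc20, the kinetochore gene Cenpf and Birc5, which encodes survivin, were nearly constant, Birc5 at 6.86 in every rat. Cdc20 was so on 5 of 5 probe sets.

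The promoters of Cdk1 and Ccnb2 are shown for the CHR letters TTTGAA and for CCAAT, which are known from promoters of mitotic genes. Capitals mark matches on either strand in the 250 bases before the start, at chr20:19265043-19265292 (plus strand) for Cdk1 and chr8:79981659-79981908 (minus strand) for Ccnb2 (RefSeq, GRCr8).
Cdk1: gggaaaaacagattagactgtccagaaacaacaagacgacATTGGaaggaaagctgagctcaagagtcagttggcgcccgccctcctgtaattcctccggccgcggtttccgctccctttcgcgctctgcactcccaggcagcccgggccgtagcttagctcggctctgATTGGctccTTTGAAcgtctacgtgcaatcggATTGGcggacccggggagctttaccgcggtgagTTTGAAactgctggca
Ccnb2: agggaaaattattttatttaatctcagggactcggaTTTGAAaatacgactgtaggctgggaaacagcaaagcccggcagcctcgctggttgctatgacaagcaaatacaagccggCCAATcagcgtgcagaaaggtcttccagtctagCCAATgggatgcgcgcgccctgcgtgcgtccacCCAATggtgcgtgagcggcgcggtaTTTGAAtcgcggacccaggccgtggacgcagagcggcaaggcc
Each of these windows held 2 CHR matches and 3 CCAAT matches. They also held E2F matches, 2 in Cdk1 and 1 in Ccnb2, which are not capitalized here. In turn, the Mcm2 window above held 2 CHR matches, and those of Mcm5, Mcm6 and Mcm7 held 3, 2 and 3 CCAAT matches. The letters thus do not divide the 2 sets of promoters. TTTGAA was in 8 of 39 members with a listed promoter and in 16.2% of all promoters, and CCAAT was in 21 of 39 members and in 34.0% of all promoters.

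Plk2 and Plk3 belong to the polo-like kinases by sequence, but they are known as genes induced by activity and stress, not as mitotic genes. Plk2 did not pass (change -0.03, 95% interval -0.20 to 0.13, adjusted p = 0.768). Its 7 MCAO values nonetheless lay entirely outside the Sham range of 10.33 to 10.40: MCAO 1, MCAO 2 and MCAO 7 were above it, at 10.50, 10.53 and 10.48, and the other 4 were below it, at 10.17 to 10.28. Plk3 was nearly constant at 6.83.

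**Figure D3:**
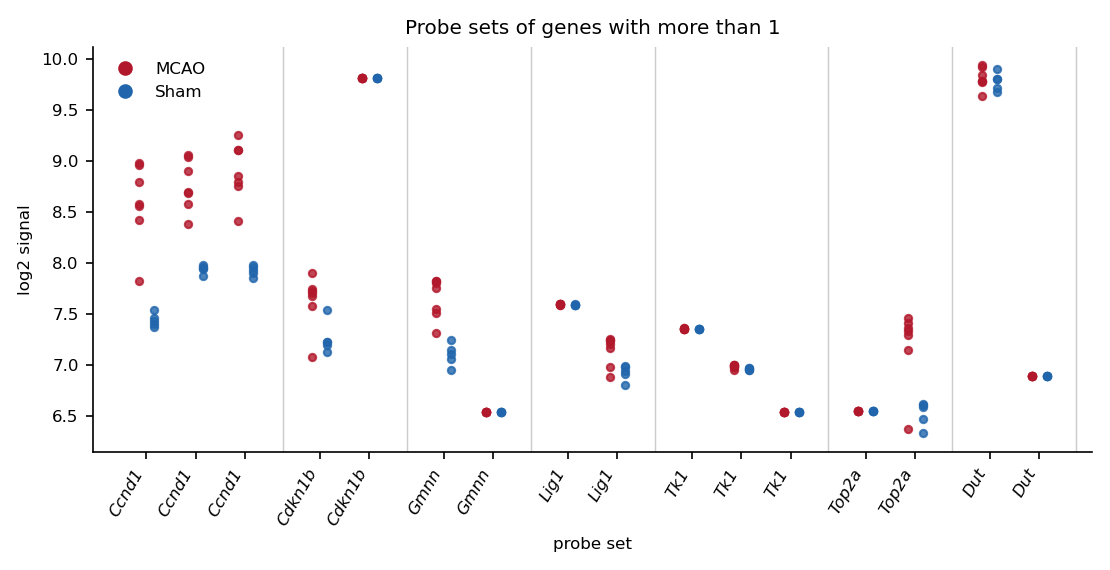
Log2 signal per rat on every probe set of 7 members with more than 1 probe set (MCAO red and left, Sham blue and right in each pair). The 3 Ccnd1 probe sets show the same separation, whereas for Cdkn1b, Gmnn, Lig1, Tk1, Top2a and Dut at least 1 probe set is flat in all 12 rats.

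The members varied more among MCAO rats than among Sham rats. Of 29 genes with a varying probe set, 27 had the larger SD in MCAO, with a median SD of 0.24 in MCAO and 0.09 in Sham. Without MCAO 2 the number was 21 of 29. The same count was not made over all genes, so the wider spread is not shown to be particular to the members. Outside them, every measured neuron marker had the larger SD in MCAO, for example Rbfox3 (0.29 against 0.06 in Sham). So did every varying microglia and macrophage marker except Itgam (0.15 against 0.22). In the further list of cell cycle genes described below, Cdkn1c (0.15 against 0.24) and Uhrf1 (0.11 against 0.13) were the only exceptions among varying genes. A single rat, MCAO 2, was the lowest of the 7 MCAO rats for 24 of these 29 genes, while MCAO 3 was the highest for 13 and MCAO 6 for 9. The median difference of the 29 genes from the Sham mean was 0.06 in MCAO 2 and between 0.32 and 0.66 in the other MCAO rats. Among the 20 called members MCAO 2 was lowest for 85.0%, and among all 2229 genes called higher it was lowest for 43.1%, with MCAO 4 lowest for 2 of the 20 members and for 48.7% of all genes called higher. These shares are descriptions without a test.

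MCAO 2 was not at Sham level for every member. Its Myc signal of 8.63 was close to the MCAO median, Mcm4 at 8.55 was at that median, and Ccnd1 at 8.41 was clearly above all Sham rats. By class, its median difference from the Sham mean was 0.21 for the 7 licensing genes and 0.03 for the 6 varying genes of G2 and mitosis, beside 1.99 for Myc and 0.45 for Rbl1. In MCAO 4 the difference was 0.82 for Myc, the lowest of its group, and 0.61 for Rbl1, and the median was 0.94 for the genes of G2 and mitosis, the highest of all 7 rats.

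**Figure D4:**
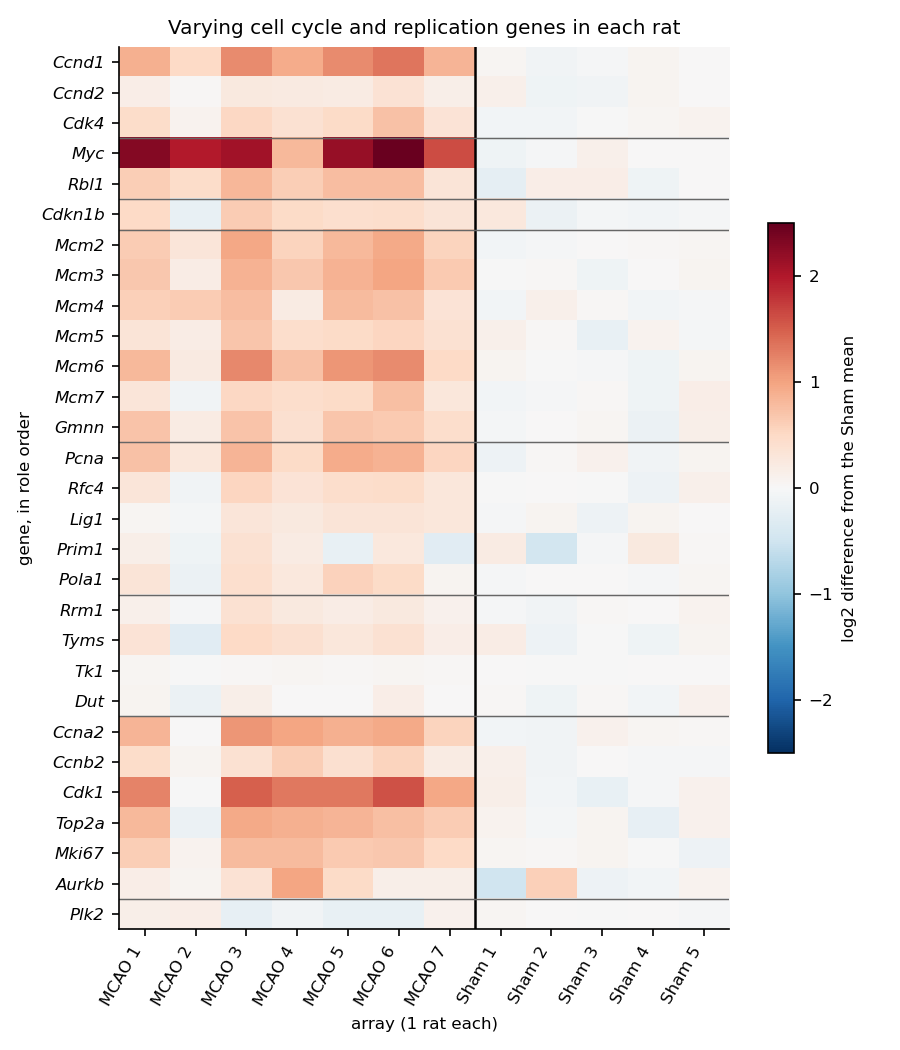
Log2 difference from the Sham mean for 29 varying member genes (rows, in role order) in each rat (columns, 7 MCAO then 5 Sham). The MCAO 2 column is pale for the genes of G2 and mitosis, with a median difference of 0.03, while its Myc cell is dark.

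Of the 64 member probe sets, 17 had every MCAO rat above every Sham rat, where 9.15% of all probe sets did. Without MCAO 2 the count was 38 of 64, where 15.5% of all probe sets did, and 1 nearly constant probe set then lay wholly below Sham. Both counts include nearly constant probe sets. MCAO 2 was singled out because it was low in these same genes, so the increase on leaving it out follows in part from that choice. Among the 31 varying member probe sets the counts were 13 with all rats and 25 without MCAO 2, against 18.3% and 29.5% of varying probe sets. The number of members called changed less, from 20 with that rat to 22 without it, when Pola1 and Tyms were added. Over all 12153 genes tested the number called higher also grew, from 2229 to 2564, so the gain is not particular to the members.

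Cell cycle genes outside the members moved in both directions, mostly upward. A further list of 146 such genes had 126 on the array, and 97 of them passed the filter. Of these 32 rose and 8 fell, where 18.3% of all genes rose and 17.8% fell. Without a filter 33 of 126 (26.2%) rose and 8 fell, where 15.6% of all genes rose and 15.0% fell. Without MCAO 2 the list had 39 genes higher, and the genes called higher over the whole array also grew, from 2229 to 2564. The median log2 change was 0.25 over the 54 varying genes of the list and 0.03 over the 6339 varying genes of the whole array.

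The largest rises in that list were in Cdkn3 (1.28 ± 0.20, SE; adjusted p = 0.00153), a phosphatase of cyclin-dependent kinases, and Ube2c (1.16 ± 0.22, adjusted p = 0.00282), which feeds the ubiquitin ligase that ends mitosis. Cdkn1a, encoding the inhibitor p21 that is induced by p53, rose by 0.95 ± 0.13 (adjusted p = 0.00118), so an arrest gene was among the largest rises. E2f5, an E2F factor usually counted as a repressor (0.92 ± 0.13), the kinesin gene Kif22 (0.89 ± 0.15) and the kinase-binding gene Cks2 (0.69 ± 0.14) followed. The largest falls were in Dck, the salvage enzyme deoxycytidine kinase (-0.40 ± 0.10), Ccng2 (-0.39 ± 0.08), an atypical cyclin of resting cells, Tfdp2, an E2F partner (-0.39 ± 0.05), Rbl2, the pocket protein p130 of resting cells (-0.36 ± 0.06), Rpa1 (-0.33 ± 0.06), which coats single-stranded DNA, and the origin recognition gene Orc4 (-0.27 ± 0.06). Rbl1 among the members and Rbl2 thus changed in opposite directions.

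Markers of several cell types moved with these genes, and their part in the results was not tested. In the same fit 18.3% of all genes rose and 17.8% fell. Of 10 microglia and macrophage markers 6 rose and 2 fell, with the strongest limma statistics in Tyrobp (1.61 ± 0.17, SE) and Itgam (0.92 ± 0.10). The 2 that fell were P2ry12 (-1.26 ± 0.19, limma adjusted p = 0.00146) and Tmem119 (-0.52 ± 0.09, limma adjusted p = 0.00222). The mean log2 signal of the list ran from 7.79 to 8.24 in MCAO rats and from 7.61 to 7.83 in Sham rats. MCAO 2 had the 7.79, a mean over risen and fallen markers that only Sham 5 exceeded. Its Tyrobp signal of 7.98 and Itgam signal of 7.17 were the lowest of the MCAO rats but lay above all Sham rats, which reached 7.32 for Tyrobp and 6.74 for Itgam. Of 8 measured infiltrating leukocyte markers 6 rose, with the strongest limma statistics in Lcn2 (2.52 ± 0.23), which reactive astrocytes also express, and Plac8 (1.40 ± 0.17). Their mean signal ran from 7.01, again in MCAO 2, to 7.71 in MCAO rats and from 6.42 to 6.54 in Sham rats, and the T cell genes Cd3e and Cd4 were nearly constant. Of 9 endothelial markers 5 rose, with the strongest limma statistics in Eng (0.64 ± 0.13) and Esam (0.59 ± 0.12), with mean signals of 7.89 to 8.42 in MCAO and 7.78 to 7.95 in Sham. In MCAO 2 the endothelial mean was 8.21, above all Sham rats.

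The other lists ran in both directions. Of 6 progenitor and neuroblast markers 3 rose and 3 fell, with Sox11 (0.95 ± 0.15) higher and Prom1 (-0.85 ± 0.14) lower, and mean signals of 7.88 to 8.31 in MCAO and 7.87 to 7.98 in Sham. Of 6 measured oligodendrocyte precursor markers 0 rose and 1 fell, Olig1 (-0.33 ± 0.12, adjusted p = 0.0499, a call not made without the filter), Cspg4 was nearly constant, while Pdgfra changed by 0.03 ± 0.06, and mean signals were 8.33 to 8.51 in MCAO and 8.45 to 8.50 in Sham. Of 8 astrocyte markers 2 rose, Gfap (1.91 ± 0.12) and Vim (1.69 ± 0.19), and 4 fell. The 4 were Aldh1l1 (-0.78 ± 0.13), Aldoc (-0.36 ± 0.10), Gja1 (-0.32 ± 0.08) and Slc1a3 (-0.28 ± 0.08). Mean signals of the astrocyte list were 11.39 to 11.64 in MCAO and 11.21 to 11.33 in Sham. Of 9 neuron markers 6 fell, with the strongest limma statistics in Stmn2 (-0.28 ± 0.04) and Snap25 (-0.25 ± 0.05) and the largest falls in Nefm (-0.58) and Rbfox3 (-0.51), and mean signals of 10.68 to 11.07 in MCAO, the highest in MCAO 2, and 11.08 to 11.23 in Sham. The 3 erythrocyte markers had no call (Hbb 0.20 ± 0.20, adjusted p = 0.461; Slc4a1 nearly constant), and their mean signals overlapped, at 8.42 to 8.90 in MCAO and 8.41 to 9.04 in Sham. As a measure of RNA integrity, beta-actin control probe sets at the 3′ end exceeded those at the 5′ end by a log2 difference of 1.36 ± 0.07 (SD) over the 7 MCAO rats, against 1.43 ± 0.03 (SD) over the 5 Sham rats (exact two-sided permutation p = 0.077), and 1.38 in MCAO 2. For GAPDH, whose difference was nearly constant, it was 0.33 in MCAO and 0.32 in Sham (exact two-sided permutation p = 0.0783).

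**Figure D5:**
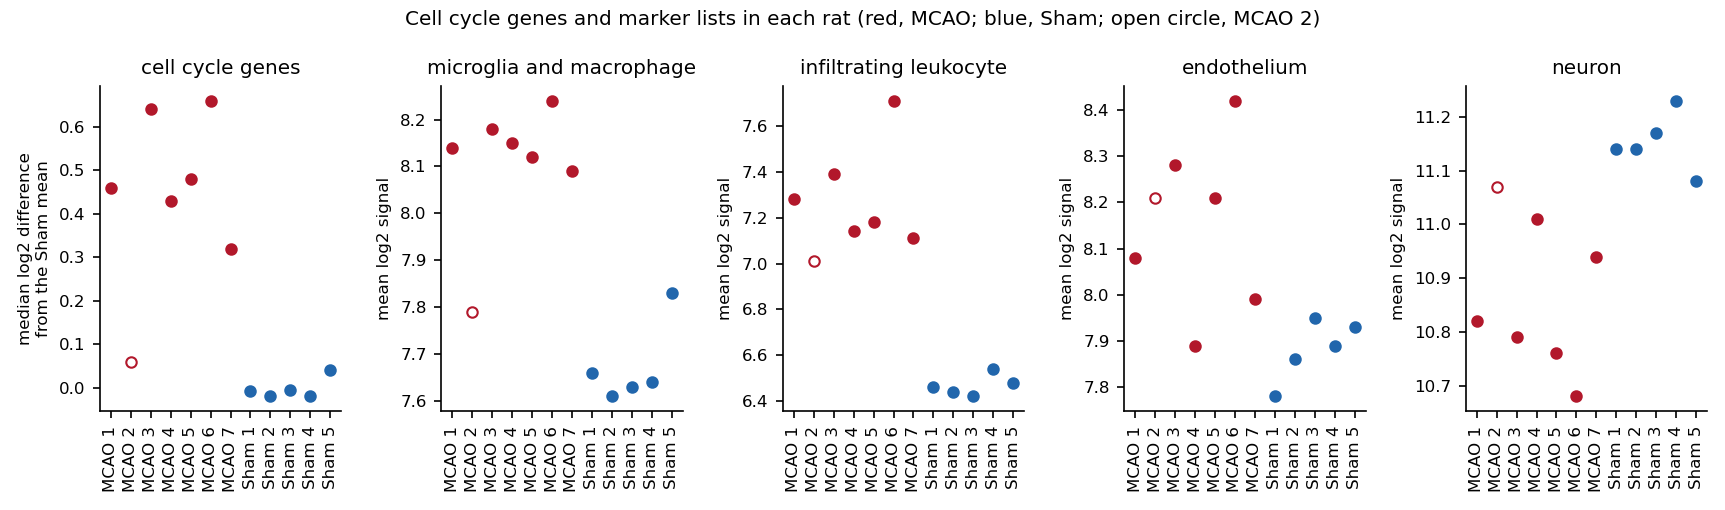
Left, the median log2 difference from the Sham mean over 29 varying cell cycle genes in each rat; the other panels give the mean log2 signal of 4 marker lists (MCAO red, Sham blue, MCAO 2 open). MCAO 2 is the lowest MCAO rat for cell cycle genes (0.06) and for microglia and macrophage markers (7.79), and lies above all Sham rats for endothelial markers (8.21).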

How the data were processed

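The authors deposited 1 table of log2 signals for 31099 probe sets on 12 arrays, made from biotin-labelled cRNA of 100 ng of total RNA per the labels' protocols. No source used here names the software, background correction, summarization or normalization, and the log2 scale was judged from the values. Values were used as deposited. Control probe sets of MCAO 6 were displaced by 12 positions, judged from 40 nearly constant ones that all matched the other arrays after the shift, and were realigned for the RNA integrity check only. All 12262 nearly constant gene probe sets of MCAO 6 matched as deposited.

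Probe sets with 1 gene were kept (20826), 436 with several genes and 9780 with none were left out. Genes were represented by the probe set with the highest mean. MCAO and Sham were compared in R 4.3.3 by limma 3.58.1 (eBayes with an intensity trend, two-sided, Benjamini-Hochberg adjustment over all genes tested, threshold 0.05). Calls of probe sets with an SD under 0.01 were not counted. Alternatives changed the scaling, the filter, the choice of probe set, the variance model, the test and the arrays used. On simulated data of 12153 genes with 200 changed, 22%, 58%, 94% and 100% of log2 changes of 0.25, 0.5, 1 and 2 were recovered, with 9 false among 146 calls. The number of arrays limits the precision. The members, lists and tests were chosen with earlier results of these data known. Within each role class the up to 4 members with the strongest limma statistic were described in most detail; of the other cell cycle genes the 6 largest rises and 6 largest falls, and of each marker list the 2 strongest members, were named, with others added after their values were seen. List genes were matched by array symbol or by the current symbol of their Entrez Gene ID, and promoters were matched by that ID.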

Additional observations from a re-analysis of the deposited data

Results flagged for a closer look

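In 9 of the 62 groups of values examined (31 varying member probe sets in MCAO and in Sham), 1 rat lay farther from the others than Dixon's 95% limit. Chance gives about 1 in 20 for a single group. These groups come from the same rats and are not independent, so their number cannot be compared with that rate. In 8 of the 9 the rat was MCAO 2, and it was low each time. Its log2 signals were 6.07 for Cdk1 (other MCAO rats 7.05 to 7.68), 6.47 for Mki67 (6.89 to 7.18), 6.37 for Top2a (7.15 to 7.46), 6.57 for Mcm3 (7.03 to 7.37), 7.63 for Rfc4 (7.99 to 8.25), 6.54 for Tyms (6.98 to 7.31), 6.95 for Tk1 (6.98 to 7.00) and 7.08 for the dimmer Cdkn1b probe set (7.58 to 7.90). The ninth was Sham 1, high on that same Cdkn1b probe set at 7.54 (other Sham rats 7.13 to 7.23).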

How the results depend on the processing

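Across 15 alternatives of processing and testing and the omission of each array, 0 members were called lower (limma, with 0 at an unadjusted p under 0.05 in the values as reported). Members called higher numbered 20, between 17 and 22 without single arrays, and 13 with the filter at the 50th percentile, which left 28 members tested. Member probe sets called higher numbered 24 and between 18 and 27 without single arrays. Other cell cycle genes called higher numbered 32, 20 with the filter at the 50th percentile (55 tested), and 25 to 39 without single arrays (40 with array weights). Those called lower numbered 8, between 7 and 8 without single arrays, and 6 with probe sets averaged. All genes called numbered 1865 to 2564 higher and 1771 to 2335 lower without single arrays. The replicate block, which uses 10 arrays, gave 1432 genes higher and 1347 lower, 15 members and 14 member probe sets higher, and 21 other cell cycle genes higher and 4 lower. Same-numbered MCAO and Sham arrays did not all deviate together. The correlations of their deviations were 0.318, 0.536, -0.335, -0.0456 and 0.159 for numbers 1 to 5. Numbers 1, 2 and 5 were best matched to their own, and the highest value was that of MCAO 2 with Sham 2. The numbers are not stated to pair animals and were not taken as pairs. Whether same-numbered arrays share a source of deviation was not tested. Lost under the block were Mcm5 (adjusted p = 0.0781), Mcm7 (0.0832), Rfc4 (0.0965), Rrm1 (0.0741) and Top2a (0.0694), and under the exact rank-sum test Mcm7, Rfc4 and Top2a (0.0615 each). Rrm1 was lost with equal array medians (0.0525). Cdkn1b and Lig1 were called when nearly constant probe sets were left out, when probe sets were averaged or when the most variable one was taken, and Tk1 in the averaged and most variable cases. Pola1 passed with near-constant probe sets left out (0.0337), with array weights (0.00187), without MCAO 7 (0.0475) and without MCAO 2, and Tyms with array weights (0.00378) and without MCAO 2. The change of Prim1, never called, ran from -0.05 (without Sham 2) to 0.12 without single arrays.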
